A study of Rattus norvegicus with 12 samples.

Results

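The 10 genes described here encode the VEGF and angiopoietin ligands and receptors of blood vessels, *Vegfa*, *Angpt1*, *Angpt2*, *Kdr*, *Flt1*, *Flt4*, *Tek* and *Tie1*, and a pair of endothelial adhesion proteins, *Cd93* and *Pcdh12*. They were taken by gene name from the 37209 genes listed in a table of raw read counts, and all 10 names were found. Of these, 9 were among the 20944 genes tested. *Angpt2* was listed at 0 counts in every rat and was not tested. The counts come from poly-A RNA-Seq of the CeA, the central nucleus of the amygdala, in wild type Sprague Dawley rats, with 1 library per rat. The CIE group (6 rats) had been given chronic intermittent ethanol vapor and the Control group (6 rats) had been given air. All were males of 14 to 16 weeks, and tissue was taken directly after the last exposure. The vapor exposure lasted several weeks and the rats shared cages, which the labels do not tie to single rats. The rats keep the numbers of the labels, 1 to 6 for CIE and 7 to 12 for Control, so an effect of processing order by number and an effect of CIE cannot be told apart.

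VEGF-A is secreted by astrocytes, neurons and other cells and binds receptor tyrosine kinases on endothelial cells. KDR (VEGFR2) carries most of the growth and permeability signal, whereas FLT1 (VEGFR1) binds the ligand more tightly and signals weakly, so that it acts mainly as a decoy, and FLT4 (VEGFR3) is the receptor for VEGF-C and VEGF-D. Angiopoietin-1, made largely by cells around the vessel, activates the endothelial receptor TEK (Tie2) and stabilizes vessels, angiopoietin-2 mostly opposes it, and TIE1 is the partner receptor of TEK. CD93 is a C-type lectin-like transmembrane glycoprotein of endothelial cells, and PCDH12 (VE-cadherin-2) is a protocadherin found at endothelial junctions.

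CIE libraries held 61978486 to 78441691 counts and Control libraries 39082548 to 95647601. Expression is given as CPM (counts of a gene scaled to a common library total) with TMM normalization, edgeR's correction for library composition. Differences are log2 fold changes of CIE against Control with their standard errors (SE), fitted with edgeR's quasi-likelihood test, and FDR is the Benjamini-Hochberg adjusted p value over all 20944 genes. A gene is said to pass when its FDR was below 0.05. CPM is not divided by transcript length, so levels are compared between groups and not between genes. CIE rat 6 had the highest value of its group in many vascular genes, and values without it are given where they change a result. This was not confined to vessels. It was also the highest CIE rat in the summed myelin (13866 CPM), astrocyte (3734 CPM) and microglia (376 CPM) markers described below. In the summed neuron markers it was the lowest CIE rat (5141 CPM).

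The 10 genes were chosen by function with the fold changes of this contrast already known, so they count as selected on these values. Their fold changes and FDR values are therefore a description and support nothing further. All 9 tested genes had a lower fitted value in the CIE group, as did 49.7% of all genes tested, but *Flt4* turned to 0.09 without CIE rat 3 and *Angpt1* to 0.09 without CIE rat 5. *Kdr*, *Cd93* and *Pcdh12* had an FDR below 0.05 with a lower value, against 0.258% of all genes (0.363% in either direction). In the same 3 genes all CIE rats lay below all Control rats, against 0.554% of all genes (0.893% without overlap in either direction). With DESeq2 these 3 had an FDR below 0.05 as well, against 0.754% of all genes in the lower direction and 1.27% in either. With *Flt1* and *Tek*, 5 of the 9 had a nominal p value below 0.05 and a lower value, against 4.31% (8.31% in either direction). The median log2 fold change was -0.25 over the 9 genes and 0.00 over all genes. Of the 3 that passed, *Kdr* had the highest FDR (0.0116), and the next of the 9, outside the threshold, was *Tek* (FDR 0.390). In bulk tissue, fewer endothelial cells and less RNA per endothelial cell cannot be told apart.

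**Figure D1:**
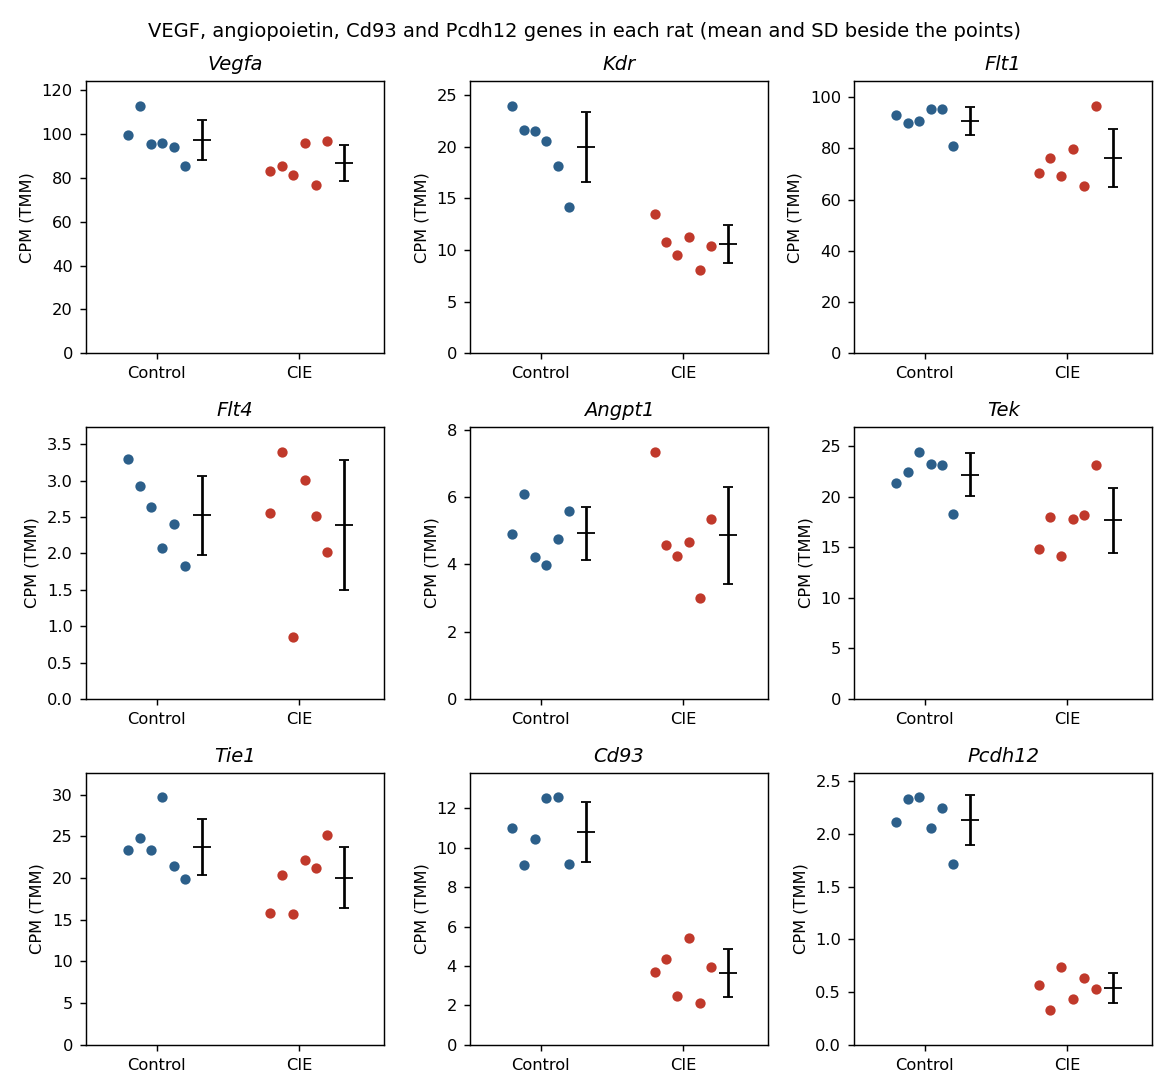
CPM with TMM normalization (y axis, from 0) of the 9 genes with counts in the 6 Control rats (blue) and the 6 CIE rats (red), 1 point per rat, with the mean and SD beside the points. The groups are apart in *Kdr*, *Cd93* and *Pcdh12*, whereas in *Flt1* and *Tek* 5 of 6 CIE rats lie below all Control rats, and in *Flt4* and *Angpt1* the CIE points spread over the Control range and beyond it on both sides.

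Among the ligands, *Vegfa* lay between 85.5 and 113 CPM in the Control rats (median 95.7) and between 76.8 and 97.1 CPM in the CIE rats (median 84.3). The 4 lowest CIE rats were below every Control rat, whereas CIE rats 4 and 6 were within the Control range. On the log2 scale the difference was -0.17 (SE 0.08, FDR 0.605). *Vegfa* was also the gene with the steadiest level in the CIE group, with a coefficient of variation of 9.46% there and 9.27% in the Control group.

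*Angpt1* ranged from 3.99 to 6.08 CPM in the Control group (median 4.82) and from 2.99 to 7.35 CPM in the CIE group (median 4.62). The lowest and the highest value both belonged to CIE rats, rat 5 and rat 1. The fitted log2 difference was -0.02 (SE 0.18, FDR 0.986). Its coefficient of variation was 29.7% among CIE rats and 16.1% among Control rats. *Angpt2* had no count in any rat, and the 3 counts that a count of 0 allows stand for 0.0314 to 0.0768 CPM per rat. In RefSeq's GRCr8 annotation *Angpt2* lies within the span of *Mcph1*, a gene that had 425 to 1120 counts per rat. *Notch4*, a Notch receptor of endothelial cells, and *Myh11*, the smooth muscle myosin of arterial walls, were also listed at 0 in all 12 rats. How the counting treated overlapping genes is not given in the sources used here, and its part in these values was not tested.

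Of the 3 VEGF receptors, *Kdr* was the one with the largest difference. In the Control rats *Kdr* was at 23.9, 21.6, 21.5, 20.5, 18.1 and 14.1 CPM, and in the CIE rats it was at 13.5, 10.8, 9.51, 11.2, 8.03 and 10.4 CPM, in the order of their numbers. The groups were apart, but CIE rat 1 and Control rat 12 came within 1 CPM of each other. The mean was 20.0 ± 3.42 CPM (SD, n = 6) in the Control group and 10.6 ± 1.82 CPM (SD, n = 6) in the CIE group, 47.1% lower. These values rest on 701 to 2077 counts per Control rat and 558 to 876 per CIE rat. Its log2 fold change was -0.92 (SE 0.14, FDR 0.0116), rank 17 of all genes by p value. The coefficient of variation was about the same in the groups, 17.1% and 17.2%.

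*Flt1* was far more even among the Control rats, at 80.8 to 95.4 CPM (median 91.9, coefficient of variation 5.97%). In the CIE rats it was at 70.6, 76.3, 69.4, 79.8, 65.3 and 96.6 CPM. CIE rats 1 to 5 were below all Control rats, and CIE rat 6 was above all of them. For *Flt1* the log2 fold change was -0.25 (SE 0.09, FDR 0.409), and without CIE rat 6 it was -0.33 (SE 0.06) with an FDR of 0.0370. *Flt1* overlaps the spans of 3 non-coding or pseudogene loci in the GRCr8 annotation, whose reads could be split from it or added to it. *Tie1* and *Angpt1* each overlap the span of a non-coding locus there (LOC102554074 and LOC102547184), so the same limit holds for them.

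*Flt4* was scarce, with 93 to 281 counts per Control rat and 55 to 204 per CIE rat. It lay between 1.83 and 3.30 CPM in the Control group (median 2.52) and between 0.850 and 3.40 CPM in the CIE group (median 2.54). CIE rat 3 was the lowest and CIE rat 2 the highest of all 12 rats. The log2 fold change of *Flt4* was -0.08 (SE 0.27, FDR 0.961), an SE that would not have resolved a difference of the size found in *Flt1*.

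Within a rat, the ratio of *Kdr* to *Flt1* in CPM does not depend on the normalization. It was 0.175 to 0.257 in the Control rats (median 0.226) and 0.107 to 0.191 in the CIE rats (median 0.139). All CIE rats except rat 1 were below the lowest Control rat, Control rat 12. The ratio of the Tie receptors, *Tek* to *Tie1*, was 0.784 to 1.08 in the Control rats (median 0.919) and 0.802 to 0.934 in the CIE rats (median 0.893), so here every CIE rat was within the Control range. These ratios are not per transcript length and say nothing of which receptor is the more abundant.

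Among the Tie receptors, *Tek* was between 18.3 and 24.4 CPM in the Control rats (median 22.8) and at 14.8, 18, 14.2, 17.7, 18.1 and 23.1 CPM in the CIE rats. As in *Flt1*, CIE rats 1 to 5 were below all Control rats and CIE rat 6 was among them. For *Tek* it came to -0.33 on the log2 scale (SE 0.11, FDR 0.390), and without CIE rat 6 it was -0.42 with an FDR of 0.0657. *Tie1* was between 19.8 and 29.7 CPM in the Control group (median 23.4) and between 15.7 and 25.1 CPM in the CIE group (median 20.8). CIE rats 1 and 3 were below all Control rats and the other 4 were within their range. Its log2 fold change was -0.24 (SE 0.13, FDR 0.653).

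The adhesion genes *Cd93* and *Pcdh12* had the lowest log2 fold changes of the 9 genes. *Cd93* was at 11, 9.13, 10.5, 12.6, 12.6 and 9.17 CPM in Control rats 7 to 12 and at 3.69, 4.36, 2.49, 5.40, 2.10 and 3.95 CPM in CIE rats 1 to 6. The highest CIE rat was well under the lowest Control rat. The mean was 10.8 ± 1.53 CPM (SD, n = 6) in the Control group and 3.67 ± 1.22 CPM (SD, n = 6) in the CIE group, 66.1% lower, with 146 to 363 counts per CIE rat. Its log2 fold change was -1.56 (SE 0.20, FDR 0.00675), rank 6 of all genes by p value.

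*Pcdh12* had the fewest counts of the 9 tested genes, with 87 to 224 counts per Control rat and 20 to 48 per CIE rat. It was at 2.11, 2.33, 2.35, 2.06, 2.25 and 1.71 CPM in the Control rats and at 0.569, 0.333, 0.742, 0.432, 0.633 and 0.530 CPM in the CIE rats. No CIE value came near the Control values. The mean was 2.13 ± 0.237 CPM (SD, n = 6) in the Control group and 0.540 ± 0.145 CPM (SD, n = 6) in the CIE group, 74.7% lower. The log2 fold change of -1.98 (SE 0.20, FDR 0.000683) was rank 3 of all genes by p value. The 2 genes did not share an order among the CIE rats: CIE rat 3 was highest in *Pcdh12* and second lowest in *Cd93*, and CIE rat 2 was lowest in *Pcdh12* and second highest in *Cd93*.

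Promoter sequences were read from RefSeq (GRCr8) for the 6 genes with an entry, *Kdr*, *Flt1*, *Flt4*, *Tie1*, *Pcdh12* and *Vegfa*, the last with 2 start sites. The 250 bases before the start are shown for *Kdr* and *Pcdh12*, the members with an entry that had the lowest log2 fold changes. They are also shown for *Flt1*, a VEGF receptor whose groups overlapped. Each is given 5′ to 3′ on the strand of its gene, in lower case, and capitals mark GGAA, the core of ETS factor sites, or its reverse complement TTCC. ETS factors such as ERG and FLI1 are well-known regulators of endothelial genes.
*Kdr*, chr14:32571813-32572062, plus strand: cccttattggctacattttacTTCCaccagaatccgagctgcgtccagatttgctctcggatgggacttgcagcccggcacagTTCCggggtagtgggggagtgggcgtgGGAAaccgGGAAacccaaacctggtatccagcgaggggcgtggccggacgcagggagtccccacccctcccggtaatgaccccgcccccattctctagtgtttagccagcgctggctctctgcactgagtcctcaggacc
*Flt1*, chr12:12333180-12333429, plus strand: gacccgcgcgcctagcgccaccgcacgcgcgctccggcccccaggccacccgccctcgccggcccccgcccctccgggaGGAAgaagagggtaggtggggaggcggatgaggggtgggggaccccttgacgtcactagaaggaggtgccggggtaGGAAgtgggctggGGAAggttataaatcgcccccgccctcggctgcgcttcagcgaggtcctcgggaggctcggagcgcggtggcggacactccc
*Pcdh12*, chr18:30370486-30370735, minus strand: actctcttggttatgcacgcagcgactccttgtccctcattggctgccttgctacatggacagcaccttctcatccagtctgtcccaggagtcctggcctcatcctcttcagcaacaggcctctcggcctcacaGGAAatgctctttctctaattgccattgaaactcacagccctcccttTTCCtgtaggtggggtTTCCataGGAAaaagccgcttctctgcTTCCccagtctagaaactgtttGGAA

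GGAA on either strand was found 4 times before *Kdr*, 3 times before *Flt1* and 6 times before *Pcdh12*, with a median of 3 over the 33469 promoters of the same length, of which 93.2% held it. The longer ETS sequence CGGAAG, in 13.9% of all promoters, was found in none of the 7 windows of these genes. Neither was ACGTG, in 16.6%, which is only 1 form of the core of hypoxia-response elements. The form GCGTG was not counted, although it or its reverse complement stands in each sequence shown above. The sequence AGATAA, bound by GATA factors and present in 10.3% of promoters, was found in 1, a window of *Vegfa*. The GC content was 61.6% before *Kdr*, 73.2% before *Flt1* and 52.0% before *Pcdh12*, against a median of 51.2%. A match is a stretch of letters and says nothing of whether a factor binds there. The counts were made on Rnor_6.0, so these positions belong to the promoter table alone.

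The receptors and adhesion proteins among these genes are known mainly from endothelial cells. A reference for endothelial content was therefore taken from 12 markers of the blood-brain barrier endothelium that hold none of the 10 genes. The mean log2 CPM of these markers was 4.42 ± 0.156 (SD, n = 6) in the Control group and 4.36 ± 0.102 (SD, n = 6) in the CIE group. The difference was -0.06 (exact permutation test, two-sided, p = 0.455, with 0.00216 the smallest p that 6 rats against 6 can give). With 1 rat left out the difference ranged from -0.11 without Control rat 12 to -0.02 without Control rat 10 (exact permutation p = 0.108 and 0.827). The markers did not move as 1 block: of the 12, 4 were lower and 3 higher in CIE at a nominal p value below 0.05, and none passed. Their mean thus averages changes in both directions and does not show that endothelial content was equal. *Slc16a1*, the monocarboxylate transporter MCT1, was at -0.51 (FDR 0.0621), *Mfsd2a*, which carries docosahexaenoic acid into the brain, at 0.40 (FDR 0.0863), and *Slc22a8*, an organic anion transporter, at -0.47 (FDR 0.0914). These 3 passed with 1 rat left out, *Slc16a1* without CIE rat 6 (FDR 0.00820) or Control rat 12 (0.0236), *Slc22a8* without CIE rat 6 (0.0236) and *Mfsd2a* without Control rat 8 (0.0428).

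When the marker mean of the same rat was subtracted from each gene on the log2 scale, the difference between the groups was -1.95 for *Pcdh12*, -1.56 for *Cd93* and -0.86 for *Kdr*, and in these 3 genes the groups still did not overlap. It was -0.28 for *Tek*, -0.20 for *Flt1*, -0.19 for *Tie1*, -0.11 for *Flt4*, -0.11 for *Vegfa* and 0.01 for *Angpt1*. The choice of reference mattered for the smaller values. *Cdh5*, *Pecam1*, *Esam* and *Icam2*, junction and adhesion genes of all endothelial cells, had a mean log2 CPM of 3.24 ± 0.148 (SD, n = 6) in the Control and 2.94 ± 0.162 (SD, n = 6) in the CIE group. That difference was -0.30, for which no p value is given. Relative to these 4 genes *Flt1*, *Tek* and *Tie1* were at 0.04, -0.04 and 0.05, *Vegfa*, *Flt4* and *Angpt1* were at 0.13, 0.13 and 0.25, *Kdr* was at -0.62 with overlapping groups, and *Cd93* and *Pcdh12* were at -1.32 and -1.71 without overlap. These values use the contrast by which the genes were listed, so they were not tested.

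**Figure D2:**
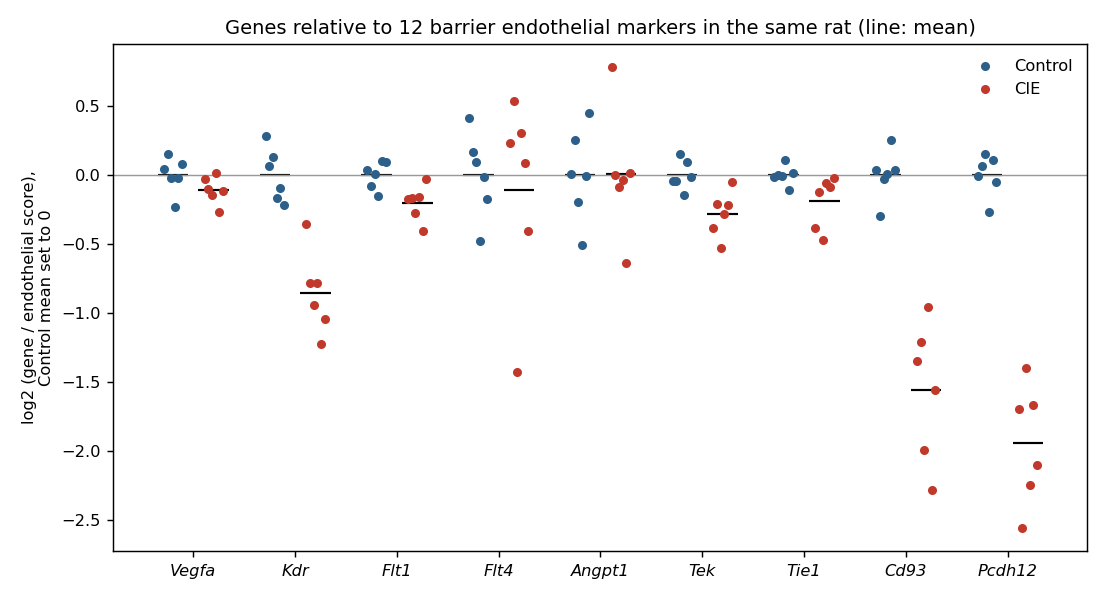
Log2 CPM of each gene minus the mean of the 12 barrier endothelial markers in the same rat (y axis), with the Control mean of each gene set to 0, in Control (blue) and CIE (red) rats, 1 point per rat, lines for group means. The CIE means of *Pcdh12*, *Cd93* and *Kdr* lie at -1.95, -1.56 and -0.86, and those of the other 6 genes between -0.28 and 0.01.

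Within a rat, *Cd93* relative to *Pecam1* was 0.455 to 0.693 in the Control rats (median 0.588) and 0.159 to 0.329 in the CIE rats (median 0.244). *Pcdh12* relative to *Pecam1* was 0.102 to 0.124 in the Control rats (median 0.118) and 0.0224 to 0.0550 in the CIE rats (median 0.0355). Neither ratio overlapped between the groups. *Kdr* relative to *Pecam1* was 0.845 to 1.37 (median 1.08) against 0.577 to 0.982 (median 0.694), with an overlap. PECAM1 (CD31) is an adhesion protein of nearly all endothelial cells.

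The other genes of the pathway were counted in 8 lists, which were also written with earlier results of these data known. Of 96 genes listed, 92 were tested, 71 had a lower and 21 a higher fitted value in the CIE group, and the median log2 fold change was -0.11. At a nominal p value below 0.05, 19 (20.7%) were lower, against 4.31% of all genes, and 2 were higher, against 4.0%. *Clec14a* and *Aplnr* passed, and both fell.

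None of the 9 other VEGF and angiopoietin ligands, coreceptors and modulators had a nominal p value below 0.05 in either direction. The 3 with the smallest p were *Nrp1*, neuropilin-1, a coreceptor of KDR (log2 fold change -0.21, FDR 0.678), *Vegfd*, listed under its older symbol *Figf* and encoding a ligand of FLT4 (-0.16, FDR 0.745), and *Svep1*, which encodes an extracellular matrix protein that binds TIE1 (-0.25, FDR 0.841). Without CIE rat 1 or 3 or Control rat 10, 1 gene of this list was below 0.05. Of 9 tested genes of the signal inside the cell, none was below 0.05 either, with *Mapk3*, the kinase ERK1, at -0.15 (FDR 0.602), *Plcg1*, the phospholipase that KDR recruits, at 0.12 (FDR 0.641) and *Src* at -0.07 (FDR 0.799), and up to 2 were with a rat left out (2 without CIE rat 3 or Control rat 7, 1 without CIE rat 1 or Control rat 10 or 12). Most of these kinases are read in every cell type of the punch, and the values are those of the whole tissue.

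*Clec14a*, a relative of *Cd93* in the group 14 family of C-type lectins, fell, with a Control mean of 4.76 ± 0.320 CPM (SD, n = 6) and a CIE mean of 2.85 ± 0.393 CPM (SD, n = 6). The Control rats were between 4.41 and 5.14 CPM and the CIE rats between 2.23 and 3.33 CPM, without overlap. The difference was -0.74 on the log2 scale (SE 0.12, FDR 0.0134). The ratio of *Cd93* to *Clec14a* within a rat was 1.84 to 2.79 in the Control group (median 2.26) and 0.756 to 1.73 in the CIE group (median 1.32), so *Cd93* was lower relative to this gene as well. *Cd248* (endosialin), the family member of pericytes and fibroblasts, was at -0.26 (FDR 0.725). *Thbd* (thrombomodulin), another relative of *Cd93*, was between 2.21 and 4.08 CPM in the Control rats. In the CIE rats *Thbd* was between 2.38 and 3.63 CPM, within the Control range. The matrix proteins that bind CD93 were at -0.12 (*Igfbp7*, FDR 0.791) and -0.03 (*Mmrn2*, FDR 0.969).

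Of 16 tested endothelial adhesion genes, 8 had a nominal p value below 0.05, all of them lower in CIE, none passed, and the median was -0.30. The count fell to 3 without Control rat 8, 4 without Control rat 10 and 5 without CIE rat 1 or 3. The smallest p values were those of *Eng*, endoglin, a coreceptor for TGF-beta family ligands (log2 fold change -0.41, FDR 0.164), *Pecam1* (-0.31, FDR 0.233) and *Mcam* (CD146, -0.56, FDR 0.283). *Pecam1* was at 18.5 ± 1.25 CPM (SD, n = 6) in the Control and 14.9 ± 1.88 CPM (SD, n = 6) in the CIE group. Without CIE rat 6 all 3 passed, with FDR values of 0.0487 for *Eng*, 0.0487 for *Pecam1* and 0.0131 for *Mcam*. Of the 10 other non-clustered protocadherins, which are read mostly in neurons, none was below a nominal p value of 0.05. Their median was -0.07, with *Pcdh7* at -0.16 (FDR 0.627), *Pcdh18* at -0.23 (FDR 0.721) and *Pcdh17* at -0.16 (FDR 0.749). Without Control rat 10, 2 of them were below 0.05, and without CIE rat 3 or 5, 1 was.

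*Aplnr*, the apelin receptor, fell from 4.02 ± 0.761 CPM (SD, n = 6) to 1.93 ± 0.402 CPM (SD, n = 6). The Control rats were between 3.04 and 4.95 CPM and the CIE rats between 1.55 and 2.46 CPM, and the log2 fold change was -1.06 (SE 0.17, FDR 0.0134). The 11 tested Notch and tip cell genes are mixed and not all mark the tip cell, the leading cell of a vessel sprout. Of these, 3 had a nominal p value below 0.05, all lower in CIE. The other 2 were *Cxcr4*, a chemokine receptor (-0.96, FDR 0.539), and *Dll4*, the Notch ligand of tip and arterial cells (-0.62, FDR 0.551), and neither passed. Without CIE rat 6 the nominal count was 5, and with a rat left out it ranged from 2 to 5. Among 17 endothelial transcription factors, 6 were lower and 1 was higher at a nominal p value below 0.05, none passed, and the median was -0.25. Their nominal count ranged from 5 to 9 with a rat left out. *Lyl1*, a bHLH factor, was at -0.37 (FDR 0.359) without overlap of the groups, *Foxf2*, a forkhead factor of brain pericytes, at -0.46 (FDR 0.373), and *Elk3*, an ETS factor, at -0.31 (FDR 0.409). Of 15 hypoxia-inducible genes and factors, 1 was lower and 1 higher at that threshold, *P4ha1*, a prolyl hydroxylase subunit of collagen synthesis (-0.18, FDR 0.416), and *Pdk1*, a kinase that slows pyruvate oxidation (0.14, FDR 0.533). The third was *Bhlhe40* (0.22, FDR 0.653). The nominal count of the hypoxia list was 1 without CIE rat 4 or 5 or Control rat 7, and it ranged from 1 to 3 with a rat left out.

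**Figure D3:**
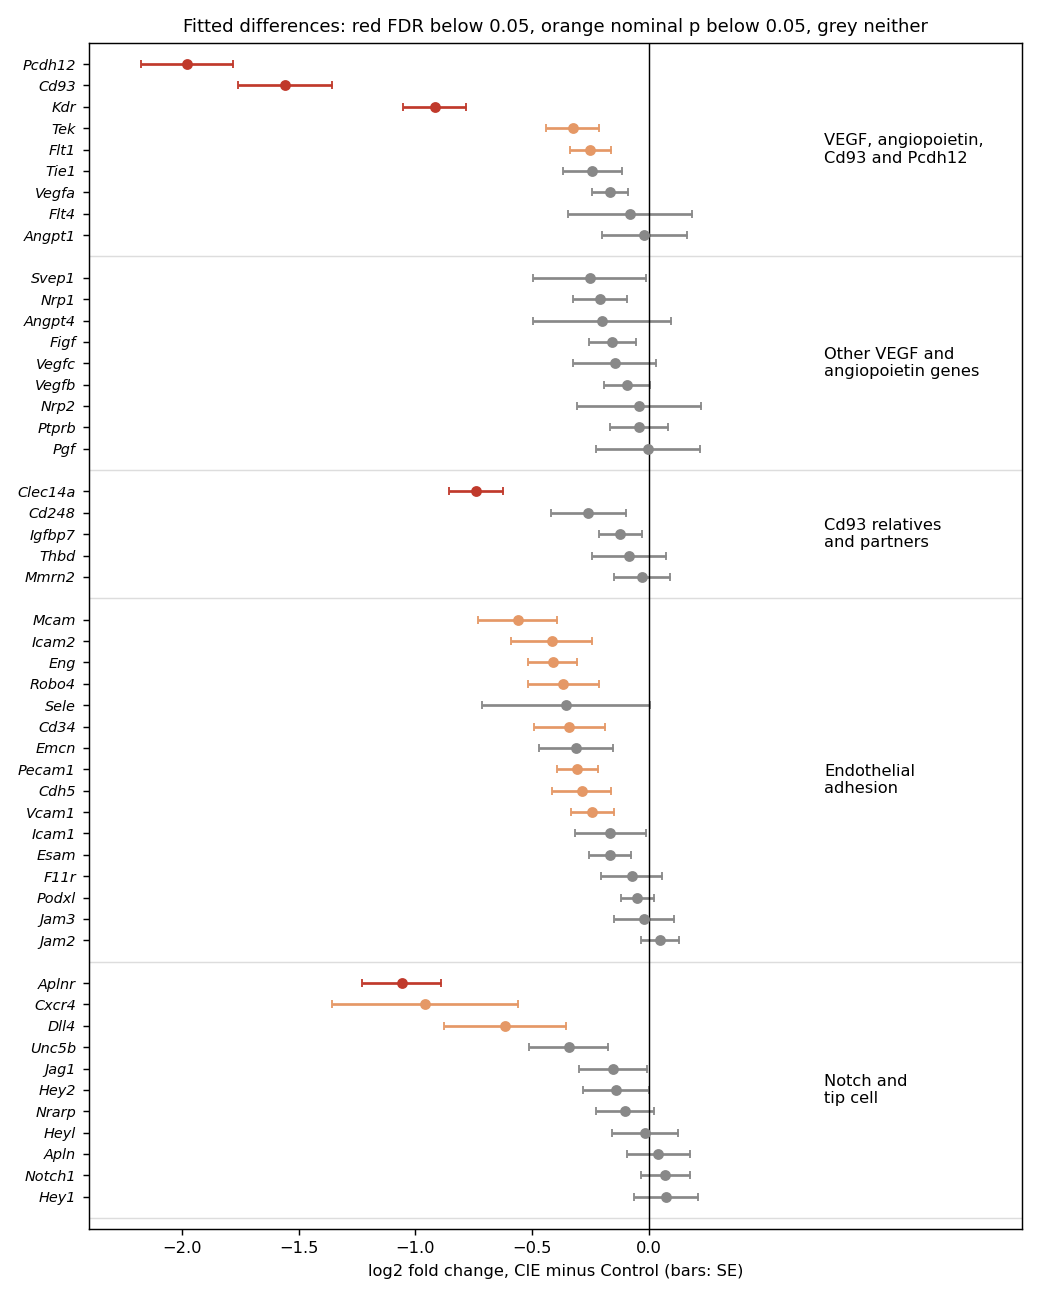
Log2 fold change of CIE against Control (x axis) from edgeR's quasi-likelihood fit, bars of 1 SE, for the 9 tested genes and for 4 pathway lists; red marks an FDR below 0.05, orange a nominal p value below 0.05 and grey neither. *Pcdh12*, *Cd93*, *Kdr*, *Aplnr* and *Clec14a* are red, and no VEGF or angiopoietin gene outside the 9 is coloured.

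Markers of other cells in the punch moved with the groups as well, and their part in the values above was not tested. The fibroblast list was at a summed level of 109 to 172 CPM in the Control rats and 52.7 to 101 CPM in the CIE rats, without overlap. Of its 9 genes, 5 were lower in CIE at a nominal p value below 0.05 and 3 passed, *Igf2* (-1.02, FDR 0.0207), *Col3a1* (-1.07, FDR 0.0243) and *Col1a1* (-1.04, FDR 0.0270). With 1 rat left out these no longer passed, *Igf2* moving to an FDR of 0.0510 to 0.0642 without CIE rat 1, 2 or 4 or Control rat 9, *Col3a1* to 0.0501 to 0.0734 without CIE rat 1, 2, 4 or 5 or Control rat 9, 11 or 12, and *Col1a1* to 0.0528 to 0.0802 without CIE rat 1, 2, 4 or 5 or Control rat 7, 8 or 9. All 6 tested erythroid transcripts were lower at a nominal p value below 0.05 without overlap, and 4 passed. Their sum was 162 to 285 CPM in the Control and 37.2 to 120 CPM in the CIE rats, and the globin genes LOC103694857 (-1.92), LOC689064 (-1.92) and *Hbb* (-1.61) share near-identical sequence, so reads may be split among them. The FDR of *Hbb* was 0.0609 to 0.0669 without CIE rat 1 or 5 or Control rat 9. Blood that stays in the vessels of a punch carries these transcripts.

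Of the 11 pericyte markers, 7 were lower at a nominal p value below 0.05, with a median of -0.30. *Kcnj8*, a potassium channel subunit of pericytes, fell from 4.53 ± 0.908 CPM (SD, n = 6) to 2.33 ± 0.555 CPM (SD, n = 6) with an FDR of 0.0300, which became 0.0583 to 0.0948 without CIE rat 1, 2 or 5 or Control rat 7, 8, 9 or 10. *Pdgfrb* was at -0.45 (FDR 0.0758, and 0.0131 without CIE rat 6) and *Rgs5* at -0.30 (FDR 0.296). The summed pericyte level was 208 to 250 CPM in the Control and 175 to 254 CPM in the CIE rats, and CIE rat 6 was the highest. Of 5 smooth muscle markers with counts, none was below 0.05, although *Acta2* went from -0.25 (FDR 0.751) to -0.45 (FDR 0.0808) without CIE rat 6, and 1 marker was below a nominal p value of 0.05 without that rat or without CIE rat 1. Their sum was 51.5 to 67.0 CPM in the Control and 41.9 to 89.4 CPM in the CIE rats. Of the 3 tested lymphatic markers, 1 was lower at a nominal p value below 0.05, *Pdpn* (-0.38, FDR 0.121), and its groups did not overlap. *Lyve1* was at -0.40 and *Prox1* at -0.20, and none of the 3 passed.

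Outside the vessels, 9 of 10 myelin markers were lower at a nominal p value below 0.05 with a median of -0.58 and none passed. Their sum was 8759 to 16399 CPM in the Control and 5718 to 13866 CPM in the CIE rats, and those with the smallest p included *Cldn11* (-0.77) and *Cnp* (-0.64). Without CIE rat 6 both passed, with FDR values of 0.0322 and 0.0260. Of the 10 astrocyte markers, 1 was lower at a nominal p value below 0.05, the water channel *Aqp4* (-0.28, FDR 0.448), and 2 were higher, *S100b* (0.15, FDR 0.566) and the gap junction gene *Gjb6* (0.34, FDR 0.590), with a median of 0.02 over the list. The astrocyte count was 1 without CIE rat 3 or 6 or Control rat 7. Of the 10 neuron markers, 1 was lower, *Tubb3* (-0.20, FDR 0.573), with a median of 0.00, and the count ranged from 0 to 2 with a rat left out. Of the 10 microglia markers, 1 was lower at a nominal p value below 0.05, with *Cx3cr1* at -0.28 (FDR 0.169, and 0.0450 without CIE rat 6), and 2 were below it without CIE rat 5 or 6. Of the 5 tested perivascular macrophage and leukocyte markers 1 was higher, *Cd163* (0.77, FDR 0.558), and the count was 2 without CIE rat 1 and 0 without CIE rat 2 or 4 or Control rat 7. The choroid plexus markers *Ttr* and *Kcnj13* were listed at 0 in every rat, and neither of the 2 that were tested was below 0.05.

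**Figure D4:**
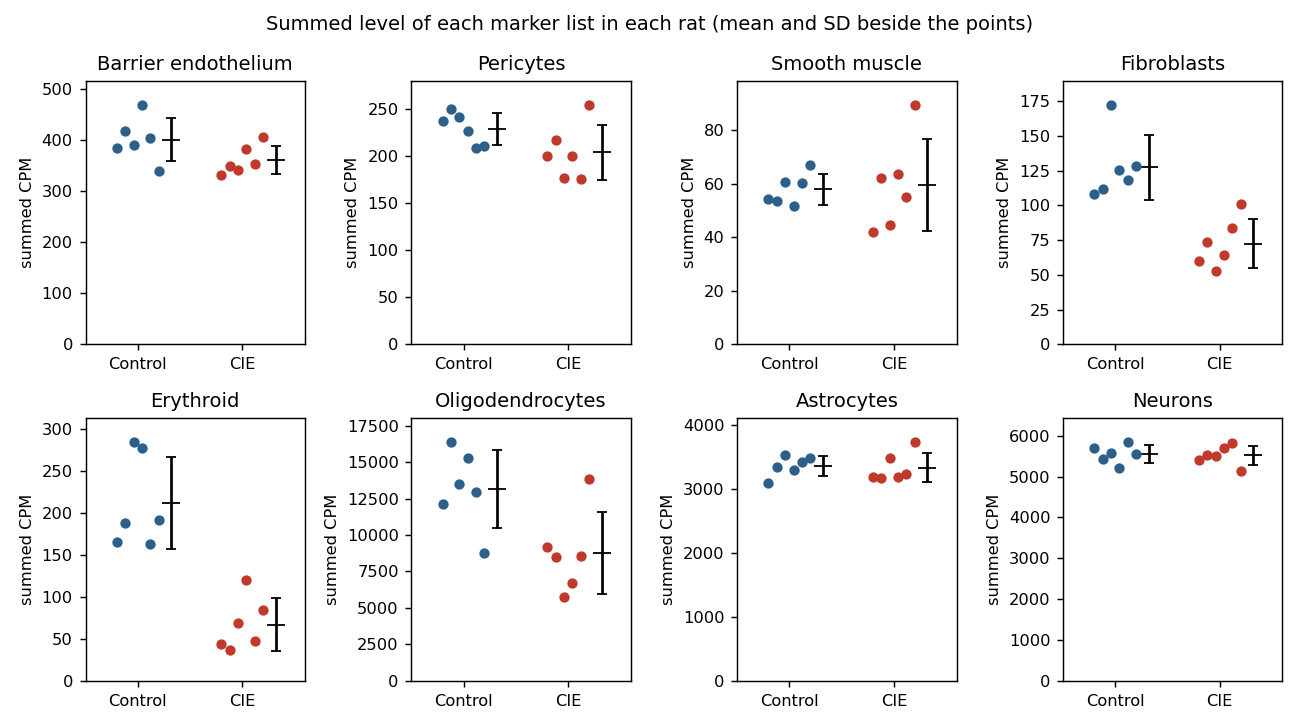
Summed CPM (y axis, from 0) of 8 marker lists in the 6 Control (blue) and the 6 CIE (red) rats, 1 point per rat, with the mean and SD beside the points. The fibroblast and erythroid sums do not overlap between the groups, whereas barrier endothelial, pericyte, smooth muscle, myelin, astrocyte and neuron sums do.

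The variation among rats of the same group, which the listing of the genes did not use, was described by Pearson's r of log2 CPM over the 12 rats after removing the group means. Both genes of a pair come from the same libraries and punches, so they share depth and tissue composition, and no p value is given. Over the 36 pairs of the 9 genes the median r was 0.35, and 26 were above 0. The highest was that of the receptor pair *Tek* and *Tie1* (r = 0.84), followed by *Flt1* with *Tek* (0.78) and *Flt1* with *Vegfa* (0.71). *Kdr* was nearest to *Vegfa* (0.58) and was at 0.37 with *Flt1* and 0.12 with *Tek*. The lowest values of all pairs were those of *Pcdh12* with *Cd93* (-0.63) and with *Flt4* (-0.55). Low counts limit the values of *Pcdh12* (20 to 48 per CIE rat) and *Flt4* (55 to 204 per CIE rat), also within each group.

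Several of these values differed between the 6 rats of each group, and no difference was tested. Among the Control rats *Pcdh12* was above 0 with 7 of the other 8 genes, from 0.24 with *Cd93* to 0.89 with *Tek*. Among the CIE rats it was below 0 with all 8, at -0.78 with *Cd93*. Over the 12 rats all 8 values of *Pcdh12* were below 0 with TMM, whereas with library size only those with *Kdr* (0.05) and *Vegfa* (0.07) were above 0. *Kdr* with *Tek* was at 0.68 among the Control and -0.22 among the CIE rats, and *Kdr* with *Flt1* at 0.70 and 0.26. For *Kdr* with *Angpt1* the order was the other way, -0.28 among the Control and 0.94 among the CIE rats. *Tek* with *Tie1* was above 0 in both groups, at 0.57 and 0.96.

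With the mean of the 12 barrier markers, r was 0.86 for *Tie1*, 0.75 for *Tek*, 0.69 for *Flt1* and 0.61 for *Vegfa*. It was 0.32 for *Kdr*, 0.28 for *Cd93* and 0.11 for *Pcdh12*. With the mean of the pericyte markers it was 0.79 for *Vegfa*, 0.71 for *Flt1*, 0.66 for *Cd93*, 0.64 for *Kdr* and -0.40 for *Pcdh12*. Markers of other cells gave values of similar size for *Tek*, *Tie1* and *Flt1*. *Tek* was at 0.86 with the fibroblast, 0.77 with the myelin and 0.68 with the erythroid markers, *Tie1* at 0.67, 0.61 and 0.71, and *Flt1* at 0.63, 0.62 and 0.59. *Kdr* was at -0.14, 0.36 and 0.08 with the same 3 lists, *Cd93* at 0.19, 0.15 and 0.32, and *Pcdh12* at -0.19, 0.05 and -0.02.

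**Figure D5:**
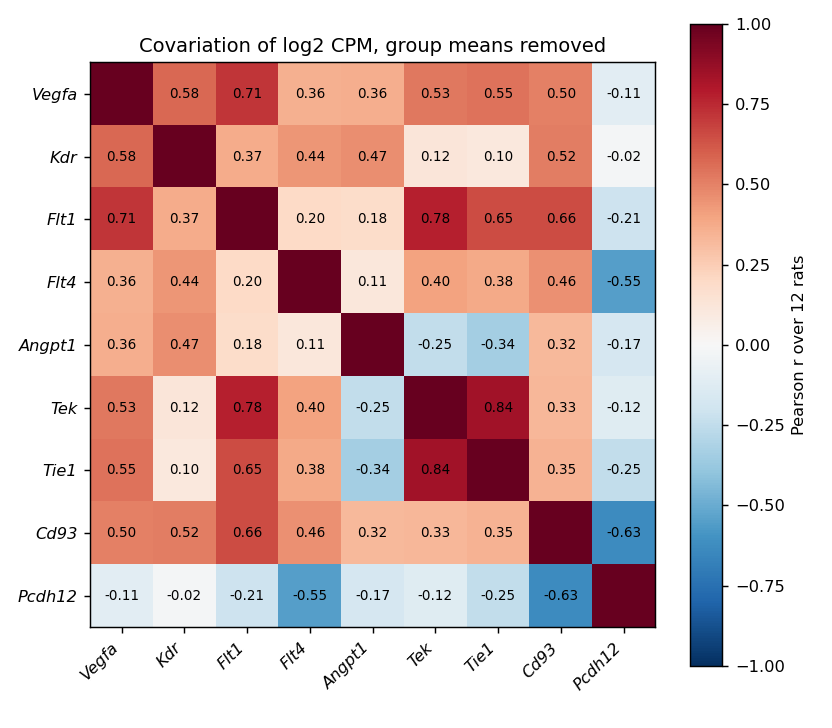
Pearson's r of log2 CPM between each pair of the 9 genes over 12 rats with group means removed, coloured from -1 (blue) to 1 (red), with the value in each cell. Off the diagonal the reddest cell joins *Tek* and *Tie1* (0.84), the bluest joins *Cd93* and *Pcdh12* (-0.63), and *Pcdh12* has values from -0.63 to -0.02, which among the Control rats alone were above 0 with 7 of 8 genes.

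The genes whose pattern over the 12 rats was most like each of the 9 were taken from 16890 genes with a mean of at least 1 CPM, by the same r. The values given are the highest of 16890 over 12 rats. A high r can come from such a search alone, and none was tested. *Kdr* was closest to *Murc* (0.91), LOC100911456 and LOC102553962, and *Flt1* to LOC100910802 (0.92), *Itga5*, an integrin subunit, and *Tbx3*. *Tek* was closest to *Ctnna1* (0.93), *Enpp4* and *Stab1*, *Tie1* to *Mpzl1* (0.91), LOC102548116 and *Gpr4*, and *Vegfa* to *Ttc9* (0.91), *Rnf135* and *Tbxas1*. *Cd93* was closest to *Klhl29* (0.97), LOC100363372 and RGD1560175, *Pcdh12* to LOC686087 (0.95), *Bcap31* and *Ucp2*, and *Angpt1* to *Ppp1r3c* (0.92), *Nfia* and *Cep250*. *Flt4* was closest to *Slc12a5*, the neuronal chloride transporter KCC2 (0.95), *Gtf3c1* and *Madd*. None of these 27 genes passed in the comparison of CIE and Control, and none is among the 9.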

How the data were processed

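RNA from CeA punches of 12 rats was sequenced, 1 library per rat. The authors mapped reads to Rnor_6.0 with BWA, counted them per gene with HTSeq and deposited raw counts. The submitters' processing notes also name DESeq2 1.26. The annotation and the strand and overlap settings are not given in the sources used here. Genes were tested in R 4.3.3 with edgeR 4.0.16 (TMM, filterByExpr, quasi-likelihood F test, two-sided, no covariates, Benjamini-Hochberg adjustment). CPM on the log2 scale had a prior count of 0.5. Alternatives were normalization by DESeq2's size factors or by library size, keeping all genes with a count, keeping genes with at least 10 counts per rat, DESeq2 1.42.0, limma-voom 3.58.1 with quality weights, the endothelial score as a covariate, and leaving out each rat.

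The members and all lists were chosen with earlier results of these data known. Named genes are the members, the 3 with the smallest p of each list, and the 3 most like each member. Of the genes this rule gives, 1 is not reported here. Further genes (*Mcph1*, *Mmrn2*, *Thbd* and those listed at 0) were named after their values were seen. Scripts were tested on simulated data. Total counts ran from 39082548 to 95647601. P values measure the spread between rats, each taken as independent, and take no account of the shared cages.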

Additional observations from a re-analysis of the deposited data

Results flagged for a closer look

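Each group of 6 rats was checked, gene by gene, for a highest or lowest rat whose gap to the nearest rat, as a share of the range of the group, was over Dixon's 95% critical value. Of 138 groups checked, 14 held such a rat, and chance gives about 1 in 20 groups. None of them belonged to *Kdr*, *Flt1*, *Flt4*, *Tek*, *Tie1*, *Vegfa*, *Angpt1*, *Cd93* or *Pcdh12*.

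CIE rat 6 stood above the other CIE rats in *Acta2* (23.5 CPM, next 15.1), *Csf1r* (128, next 102), *Mcam* (54.6, next 34.8), *Mfsd2a* (19.3, next 16.6) and *Slc16a1* (46.5, next 34.5). CIE rat 3 stood above the others in *Nrp1* (43.3, next 32.6). Control rat 10 was above the other Control rats in *Cd248* (3.49, next 2.51) and below them in *Kl* (1.53, next 2.84), *Pcdh17* (118, next 164) and *Pcdh18* (19.2, next 25.0). Control rat 12 was above the others in *Clic6* (1.50, next 0.245) and *Pdpn* (13.9, next 11.8) and below them in *Slc16a1* (39.3, next 49.7). Control rat 9 was above the others in *Col1a1* (37.1, next 23.8).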

How the results depend on the processing

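No paired analysis was possible because the numbers of the labels do not recur across the groups. *Kdr*, *Cd93* and *Pcdh12* kept an FDR below 0.05 and a lower value in all 7 other settings and without each of the 12 rats. With each rat left out, the log2 fold change ranged from -1.0 to -0.85 for *Kdr*, -1.70 to -1.44 for *Cd93*, -2.08 to -1.87 for *Pcdh12*, -0.33 to -0.21 for *Flt1* (FDR 0.0370 without CIE rat 6), -0.42 to -0.27 for *Tek*, -0.32 to -0.16 for *Tie1*, -0.20 to -0.11 for *Vegfa*, -0.21 to 0.09 for *Flt4* and -0.17 to 0.09 for *Angpt1*.

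Over all genes, 76 had an FDR below 0.05 with edgeR, 265 with DESeq2, 234 with limma-voom, and 34 to 154 with a rat left out. At a nominal p value below 0.05 the counts were 1740, 3596 with limma-voom, and 1347 to 2811. In the 8 pathway lists, the 21 genes at a nominal p value below 0.05 became 32 with limma-voom and 15 to 26 with a rat left out, and the 2 genes past 5% FDR became 4 and 2 to 5. Relative to 4 pan-endothelial genes in place of 12 barrier markers, *Flt1* moved to 0.038, *Tek* to -0.041, *Tie1* to 0.047, *Vegfa* to 0.13, *Flt4* to 0.13 and *Angpt1* to 0.25. The log2 fold change of *Clic6*, -0.71 with all rats, ranged from -0.92 without Control rat 10 to 0.60 without Control rat 12. Among the other named genes, calls were gained 33 times and lost 29 times over all settings. The cause was not tested. Counts limit *Pcdh12* (20 to 48 per CIE rat) and *Flt4*.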
